A study of Mus musculus with 20 samples.

Results

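The major histocompatibility complex (MHC) class II and antigen processing locus was described here through the enhancers transcribed in a window of mouse chromosome 17. Members were all enhancers of the raw count table with their midpoint on chr17 between positions 34000000 and 35000000 of the mm39 build, which the choice of the window gives as the place of the MHC class II genes, Psmb8, Psmb9, Tap1 and H2-K1. There were 19 such enhancers of 11222 in all (0.169%). They were chosen by position, not by a threshold on tags, but the window was put forward with results from these libraries known, so the counts of members called below are a description and no independent support.

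Macrophages were grown with M-CSF from bone marrow of C57BL/6 mice. They received interferon gamma (IFN-γ) together with CpG oligodeoxynucleotide (CpG, a ligand of Toll-like receptor 9), IFN-γ alone or CpG alone, each for 3, 9 or 15 h, or were left unstimulated (0 h). Each of the 10 groups had 2 libraries, biological replicates per the series, and no unstimulated cells of 3, 9 or 15 h were among them, so that time in culture and stimulus cannot be told apart in a comparison with unstimulated cells. A step of polarization with IL-4 and IL-10, and a stimulation of another length than the times on the samples, also stand in the protocols, which do not say whether they apply to these libraries. The sources used here do not give the age of the mice or the number behind a library. Only values for enhancers were used, so the cell type was not checked against marker genes.

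The assay was nAnT-iCAGE, an amplification-free cap analysis of gene expression (CAGE) that counts the 5′ ends of capped RNA. A tag is 1 sequenced 5′ end, and an enhancer in the deposited table is a region with CAGE tags in both directions, per the file header. Tags are given as raw counts, or as RPM, the count scaled to the total of the whole library with no term for the width of the region. Library totals were 12776280 to 13855472 tags, and 12879 to 29794 tags (0.0991% to 0.220%) fell in enhancers. The 19 members together held 674 tags over the 20 libraries. Their median was 26 tags, against 21 tags for all 11222 enhancers. Small counts therefore set the precision of every value for a single enhancer.

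As background, MHC class II molecules are heterodimers of an alpha and a beta chain that present peptides from endocytosed proteins to CD4+ T cells. In macrophages IFN-γ induces them through the transactivator CIITA. In RefSeq's order of genes on the GRCm38.p6 assembly, from which only names and order were taken, the locus runs Tapbp, H2-K1, H2-Oa, Brd2, H2-DMa, H2-DMb2, H2-DMb1, Psmb9, Tap1, Psmb8, Tap2, H2-Ob, H2-Ab1, H2-Aa, H2-Eb1 and H2-Eb2. H2-Ab1, H2-Aa and H2-Eb1 encode classical class II chains. H2-DMa, H2-DMb1 and H2-DMb2 encode chains of the H2-DM peptide exchange factor, and H2-Oa and H2-Ob those of H2-O, which modulates H2-DM. H2-Eb2 is given by name only. Apart from it, the others serve mostly the class I pathway. Psmb8 and Psmb9 are immunoproteasome subunits, and Tap1 and Tap2 form the peptide transporter of the endoplasmic reticulum. Tapbp encodes tapasin, which helps load peptides, and H2-K1 is a class I heavy chain. Brd2, a bromodomain protein that binds acetylated histones, lies among the genes of the locus. Enhancers were not assigned to these genes, because the annotation used here is of an older build than the files and positions were not converted between builds.

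The members are called E1 to E19 by position on the chromosome. They were 101 to 508 bases wide, with a median of 258. E1 lies at chr17:34018287-34018507, E2 at chr17:34123025-34123242, E17 at chr17:34657641-34657831, E18 at chr17:34780330-34780528 and E19 at chr17:34859736-34860175, each more than 50 kb from its neighbours. E3 to E7 form a run of 5 members over 87.1 kb, with E3 at chr17:34320863-34321012, E4 at chr17:34321914-34322172, E5 at chr17:34355691-34355792, E6 at chr17:34390218-34390414 and E7 at chr17:34407641-34407917. E8 to E16 form a run of 9 members over 108.5 kb. In it E8 lies at chr17:34458687-34459040, E9 at chr17:34480410-34480858, E10 at chr17:34505490-34505768, E11 at chr17:34510651-34510902 and E12 at chr17:34512577-34512905. E13 follows at chr17:34514990-34515498, E14 at chr17:34523716-34524064, E15 at chr17:34566597-34566958 and E16 at chr17:34567037-34567226. By midpoint E8 lies 51.1 kb from E7, just past the 50 kb that separates runs here, so the split into runs depends on this cutoff. E7 held the most tags (108), followed by E9 (91) and E13 (69). E6 held the fewest (10).

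Summed over the 19 enhancers, transcription was highest with IFN-γ alone and lowest with CpG alone. With IFN-γ the sum was 2.80 and 2.77 RPM in the 2 libraries of 3 h, 5.56 and 7.05 RPM at 9 h, and 4.69 and 5.16 RPM at 15 h, against 1.30 and 1.49 RPM in unstimulated cells. All 6 IFN-γ libraries lay above both unstimulated libraries. In these bulk libraries, more transcription per cell and more cells that transcribe the region cannot be told apart. The group means were 2.00-fold, 4.52-fold and 3.53-fold that of unstimulated cells, while all other enhancers together stood at 0.742-fold, 0.987-fold and 0.829-fold.

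With both stimuli the sum was 2.96 and 2.36 RPM at 3 h, 2.19 and 1.75 RPM at 9 h and 2.43 and 1.64 RPM at 15 h. All 6 of these libraries also lay above both unstimulated libraries, with means 1.91-fold, 1.41-fold and 1.46-fold theirs, against 1.23-fold, 0.875-fold and 1.20-fold for all other enhancers. At 3 h the sum with both stimuli was close to that with IFN-γ, 2.66 ± 0.421 RPM against 2.78 ± 0.0189 RPM (mean ± SD, n = 2 each), and the libraries overlapped. At 9 h it averaged 1.97 ± 0.315 RPM with both stimuli and 6.30 ± 1.05 RPM with IFN-γ, and at 15 h it averaged 2.04 ± 0.563 RPM with both stimuli and 4.93 ± 0.335 RPM with IFN-γ (SD, n = 2 each). The libraries did not overlap at these times, and the mean with both stimuli was 0.313-fold and 0.413-fold the mean with IFN-γ.

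With CpG alone the sum was 0.747 and 0.916 RPM at 3 h, 1.49 and 1.34 RPM at 9 h and 0.538 and 0.939 RPM at 15 h. The libraries of 3 h and 15 h lay below both unstimulated libraries (0.596-fold and 0.529-fold in the mean), and those of 9 h overlapped them (1.01-fold). The mean with both stimuli was 3.20-fold, 1.40-fold and 2.76-fold the mean with CpG at 3, 9 and 15 h, and the mean with IFN-γ was 3.35-fold, 4.46-fold and 6.67-fold it.

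**Figure D1:**
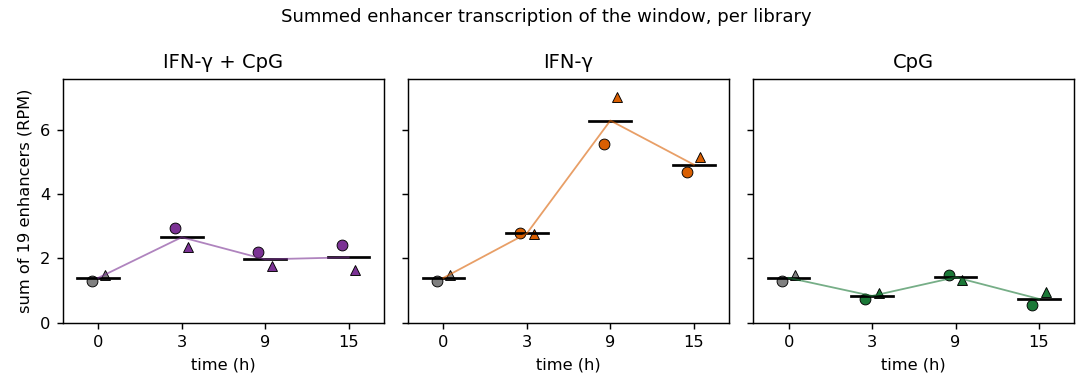
Summed level of the 19 enhancers in RPM (y axis) by hours of stimulation (x axis), in panels for both stimuli, IFN-γ alone and CpG alone; circles and triangles are replicates 1 and 2, bars are group means joined by a line, and grey marks are the unstimulated libraries, repeated in each panel. The IFN-γ libraries of 9 h, at 5.56 and 7.05 RPM, sit above all others, and the CpG libraries sit near or below the unstimulated ones.

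Ordered by mean level, IFN-γ at 9 h stood first, then IFN-γ at 15 h and IFN-γ at 3 h, and neighbours among these did not overlap, except that IFN-γ at 3 h overlapped the next group, both stimuli at 3 h. Both stimuli at 3, 15 and 9 h followed, and each overlapped the next in this order, but the libraries of 3 h lay above those of 9 h. CpG at 9 h and unstimulated cells came next and overlapped each other, and CpG at 3 h and at 15 h came last and overlapped each other. As a share of all enhancer tags, a scale that does not use the whole-library total, the members held 0.146%, 0.145% and 0.114% with both stimuli at 3, 9 and 15 h. They held 0.246%, 0.414% and 0.382% with IFN-γ, 0.0635%, 0.0884% and 0.0492% with CpG, and 0.0901% in unstimulated cells. On this scale too IFN-γ exceeded both stimuli, and both stimuli exceeded unstimulated cells in the mean at every time. The single libraries did not all keep their order in RPM. At 3 h those of IFN-γ (0.213% and 0.280%) lay above those of both stimuli (0.184% and 0.107%). At 15 h replicate 2 of both stimuli (0.0785%) lay below both unstimulated libraries (0.0817% and 0.0985%).

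Most members shared the direction of the sum under IFN-γ. By group mean, 13, 17 and 16 of the 19 enhancers were higher with IFN-γ than in unstimulated cells at 3, 9 and 15 h, and 5, 2 and 3 were lower, while 38.9%, 42.6% and 42.3% of all enhancers were higher. With both stimuli against IFN-γ, 10, 17 and 15 of the 19 were lower and 8, 2 and 4 were higher, while 32.0%, 45.1% and 33.1% of all enhancers were lower. With CpG against unstimulated cells, 10, 12 and 12 members were lower and 5, 5 and 4 were higher, while 41.7%, 37.6% and 38.8% of all enhancers were lower. Averaged over the 3 times, 15 members had their highest mean level among the 3 stimuli with IFN-γ, 3 with both stimuli (E1, E7 and E15) and 1 with CpG (E19). E12, one of the 15, had a higher mean in unstimulated cells than with any stimulus averaged in this way. At 3 h, however, its mean was higher with IFN-γ (0.190 RPM) and with both stimuli (0.181 RPM) than in unstimulated cells (0.145 RPM). These counts take means as they are, without a test, and neighbouring enhancers are not independent of each other. The count by highest stimulus was not made over all enhancers. It includes members whose order rests on few tags, such as E6, with 4 tags with IFN-γ, 3 with CpG and 3 with both stimuli.

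**Figure D2:**
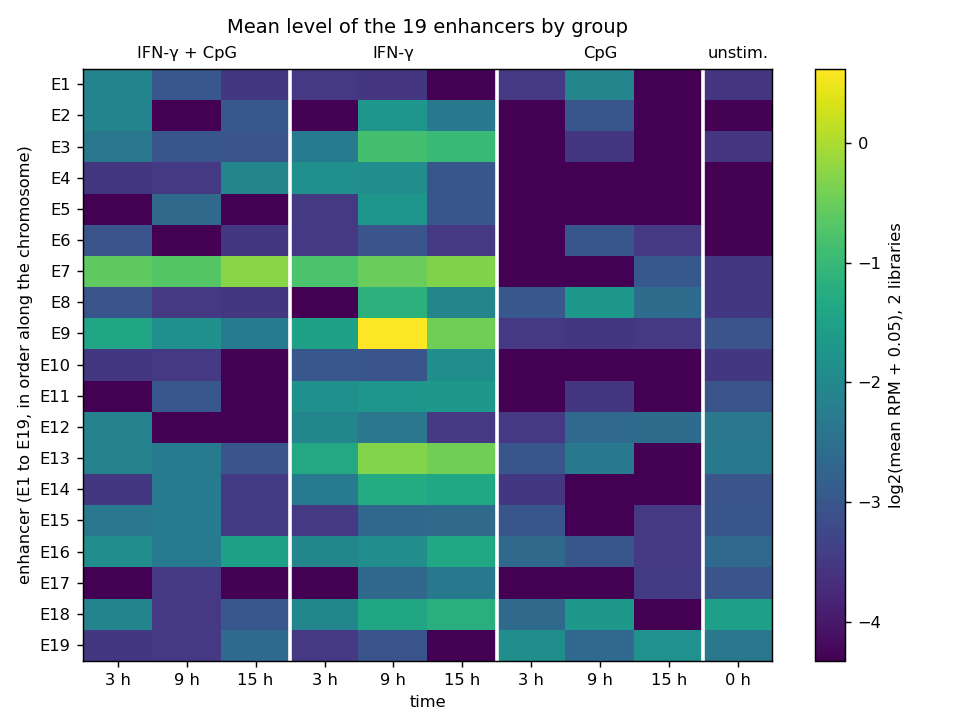
Mean level of each enhancer as log2(RPM + 0.05), shown by colour, for E1 to E19 (rows) in the 10 groups (columns, both stimuli, IFN-γ and CpG at 3, 9 and 15 h, then unstimulated cells). E7 is bright under both stimuli and under IFN-γ, E9 is brightest under IFN-γ at 9 h (1.48 RPM), and most rows are dark under CpG.

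The 2 runs of neighbouring enhancers held most of the tags of the window. The run E3 to E7 had 0.876 ± 0.0889, 0.797 ± 0.0566 and 1.09 ± 0.654 RPM with both stimuli at 3, 9 and 15 h, and 0.992 ± 0.120, 1.70 ± 0.161 and 1.39 ± 0.149 RPM with IFN-γ (SD, n = 2). With CpG it had no tag at 3 h, 0.112 ± 0.158 RPM at 9 h and 0.116 ± 0.0533 RPM at 15 h, and in unstimulated cells 0.0734 ± 0.00149 RPM (SD, n = 2). This run thus held 24, 21 and 29 tags with both stimuli at 3, 9 and 15 h, most of them at E7, and 2 tags in unstimulated cells.

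The run E8 to E16 had 1.20 ± 0.548, 0.986 ± 0.211 and 0.644 ± 0.0283 RPM with both stimuli at 3, 9 and 15 h, and 1.52 ± 0.196, 3.80 ± 0.990 and 2.86 ± 0.298 RPM with IFN-γ (SD, n = 2). It had 0.454 ± 0.114, 0.670 ± 0.212 and 0.349 ± 0.0593 RPM with CpG, and 0.773 ± 0.275 RPM in unstimulated cells (SD, n = 2). By 15 h its level with both stimuli was thus near that in unstimulated cells. The difference between the runs was not tested.

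For single enhancers, tags were tested with edgeR's quasi-likelihood test on all 20 libraries, with p-values adjusted by Benjamini-Hochberg over the 2792 enhancers that passed a filter on low counts, and an enhancer was called at an adjusted p under 0.05. Of the 19 members, 7 passed (E3, E7, E9, E13, E14, E16 and E18) and 12 did not. The minimum count is scaled to the enhancer tags of each library, so that 5 tags in a library with many enhancer tags can fall short of it. On that scale no CpG library and no unstimulated library reached it at any of the 7. They passed through libraries with IFN-γ, in which they are high, so values over these 7 are no measure of how common a response is in the window. Differences are fitted log2 changes ± SE.

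At 1 or more times, 4 of the 7 were higher with IFN-γ than in unstimulated cells (E3, E7, E9 and E13). Of all tested enhancers 27% were called in either direction on the same terms. At 3 h only E7 was called, where 7.59% of all tested enhancers were called higher. At 9 h and at 15 h all 4 were, where 12.9% and 10.1% were. Against CpG at the same time 6 of the 7 were higher with IFN-γ (all but E16), where 31.9% of all tested enhancers were called in either direction. By time this was E7 at 3 h, E3, E7, E9, E13 and E14 at 9 h, and these 5 with E18 at 15 h, where 6.2%, 12.2% and 9.89% of all tested enhancers were called higher.

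With both stimuli, E7 alone was called against unstimulated cells, at all 3 times, where 18.4%, 14.1% and 15.6% of all tested enhancers were called higher and 43.2% were called in either direction at 1 or more times. E7 alone was also called against CpG, at all 3 times, where 11.4%, 4.66% and 3.4% were called higher. At 1 or more times 22% of all tested enhancers were called in either direction. Against IFN-γ, E9 was lower with both stimuli at 9 h, and E9 and E13 at 15 h, where 0.251%, 2.26% and 4.01% of all tested enhancers were called lower at 3, 9 and 15 h and 13.1% were called in either direction at 1 or more times. At 3 h no member was called between both stimuli and IFN-γ by edgeR, and none had an unadjusted p under 0.05; DESeq2 and limma called none either.

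CpG alone changed no member past the threshold in edgeR, where 1.54%, 6.98% and 7.59% of all tested enhancers were called in either direction at 3, 9 and 15 h. 2 members had an unadjusted p under 0.05 (E13 and E18, both at 15 h), and limma on log2(RPM + 0.5) called none. DESeq2 gave no adjusted p for 6, 4 and 5 of the 7 at 3, 9 and 15 h and called none of the others. At 15 h E18 held no tag with CpG and 8 tags in unstimulated cells, a level at least 2.52-fold lower with CpG (adjusted p = 0.0750). Fewer tags limit what can be called downward. Data were simulated as IFN-γ at 9 h against no stimulation, with the same spread for all 2792 enhancers. Changed enhancers were drawn from all of these, at their mean level over the 20 libraries. The test recovered 14% of 4-fold falls, 44% of 4-fold rises and 98% of 8-fold rises. The 7 members held 1 to 8 tags each in unstimulated cells, so these shares need not hold for them.

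E7, in the first run and the enhancer with most tags, responded to IFN-γ whether or not CpG was present. With both stimuli it held 12 and 5 tags at 3 h, 6 and 9 at 9 h, and 14 and 7 at 15 h. With IFN-γ alone it held 7 and 7, 10 and 8, and 11 and 9 tags at these times. With CpG it held no tag at 3 h or 9 h and 1 tag in each library at 15 h, and in unstimulated cells it held 0 and 1. All 12 libraries with IFN-γ, alone or with CpG, lay above all 8 libraries without it.

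In RPM, E7 averaged 0.618 ± 0.351, 0.569 ± 0.163 and 0.789 ± 0.344 with both stimuli and 0.534 ± 0.00672, 0.651 ± 0.0994 and 0.753 ± 0.112 with IFN-γ at 3, 9 and 15 h, against 0.0372 ± 0.0526 in unstimulated cells (SD, n = 2). With both stimuli the log2 difference from unstimulated cells was 3.74 ± 1.02 at 3 h (edgeR adjusted p = 0.00268), 3.93 ± 1.03 at 9 h (0.00212) and 4.02 ± 0.98 at 15 h (7.24e-04). With IFN-γ it was 3.97 ± 1.04 at 3 h (edgeR adjusted p = 0.00391), 3.98 ± 1.00 at 9 h (0.00150) and 4.34 ± 0.96 at 15 h (3.82e-04). The single tag of unstimulated cells leaves the ratio of RPM wide. It was 15.5 (95% interval 2.39 to 653) with both stimuli and 17.8 (2.81 to 740) with IFN-γ at 9 h.

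Between both stimuli and IFN-γ the log2 difference of E7 was -0.24 ± 0.61 at 3 h, -0.05 ± 0.59 at 9 h and -0.32 ± 0.54 at 15 h. The libraries overlapped at each time. The ratio of RPM at 15 h was 1.06 with a 95% interval of 0.546 to 2.06. This interval covers counting error only and leaves out the spread between replicates. RPM is also scaled otherwise than the fit, and at 15 h the ratio and the fitted difference point in opposite directions. The values do not show that the levels were the same. Against CpG, E7 was at least 5.48-fold higher at 3 h and at least 5.10-fold higher at 9 h with both stimuli (edgeR adjusted p = 0.00190 and 0.00107), counted against a floor of 3 tags over the CpG group. At 15 h the log2 difference was 3.04 ± 0.87 with both stimuli (0.0191). With IFN-γ it was at least 4.71-fold and 5.84-fold higher than with CpG at 3 and 9 h (0.00184 and 2.05e-04), and the log2 difference at 15 h was 3.36 ± 0.87 (0.00261).

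The calls of E7 against unstimulated cells rest on unstimulated replicate 1, which held no tag: without it the adjusted p was 0.106, 0.0987 and 0.0616 for both stimuli and 0.164, 0.0890 and 0.0702 for IFN-γ at 3, 9 and 15 h. They were also lost without IFN-γ replicate 2 at 3 h (0.0690), and for both stimuli without replicate 1 at 3 h (0.129), replicate 2 at 9 h (0.0678) and replicate 1 at 15 h (0.0511). Against CpG, the calls for both stimuli were lost without CpG replicate 1 or 2 (0.0584 and 0.0635 at 3 h, 0.0546 and 0.0627 at 9 h, 0.230 and 0.199 at 15 h) and without replicate 1 of both stimuli at 3 h (0.0759) and 15 h (0.314). Those for IFN-γ were lost without CpG replicate 1 or 2 at 3 h (0.0710 and 0.0604) and at 15 h (0.0628 and 0.0505) and without IFN-γ replicate 1 at 15 h (0.0534). The call of IFN-γ against CpG at 9 h was kept without any 1 of the 4 libraries. DESeq2 gave an adjusted p of 0.0609 and 0.0591 for both stimuli and 0.0754 and 0.0536 for IFN-γ against unstimulated cells at 3 and 9 h, and, against CpG at 15 h, 0.0951 for both stimuli and 0.0507 for IFN-γ. The call of both stimuli against CpG at 15 h was lost without the filter as well (0.0779).

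E9, in the second run, was high with IFN-γ alone and lower when CpG was added. With both stimuli it held 6 and 3 tags at 3 h, 3 and 3 at 9 h, and 1 and 3 at 15 h. With IFN-γ it held 7 and 1, 20 and 21, and 9 and 9 tags. With CpG it held 0 and 1, 1 and 0, and 1 and 0 tags, and in unstimulated cells 1 and 1. The groups of both stimuli and IFN-γ overlapped at 3 h and lay apart at 9 and 15 h.

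The level of E9 was 0.327 ± 0.150, 0.228 ± 0.000851 and 0.154 ± 0.113 RPM with both stimuli at 3, 9 and 15 h and 0.303 ± 0.320, 1.48 ± 0.0581 and 0.677 ± 0.0051 RPM with IFN-γ, against 0.0734 ± 0.00149 RPM in unstimulated cells (SD, n = 2). IFN-γ differed from unstimulated cells by a log2 of 4.32 ± 0.76 at 9 h (edgeR adjusted p = 1.78e-06) and 3.36 ± 0.89 at 15 h (0.00353), and from CpG by 5.10 ± 0.86 at 9 h (5.06e-07) and 4.06 ± 1.02 at 15 h (0.00182). Both stimuli differed from IFN-γ by -2.52 ± 0.63 at 9 h (0.00523) and -2.49 ± 0.77 at 15 h (0.0257). In RPM the level with both stimuli was 6.52-fold lower at 9 h (95% interval 2.75 to 18.8) and 4.47-fold lower at 15 h (1.47 to 18.1). Against unstimulated cells both stimuli differed by 2.00 ± 1.03, 1.80 ± 1.12 and 0.87 ± 1.22, with adjusted p = 0.133, 0.234 and 0.637.

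The 2 calls of E9 for IFN-γ at 9 h, against CpG and against unstimulated cells, were kept without any 1 of the libraries compared, with an adjusted p of at most 0.00211 and 0.00235. The call of both stimuli against IFN-γ at 9 h was lost without replicate 1 of IFN-γ (0.102) and without replicate 1 or 2 of both stimuli (0.134 and 0.0966), and in DESeq2 (0.0752). At 15 h it was lost without any 1 of the 4 libraries (0.121 to 0.231), in DESeq2 (0.101), by whole-library totals (0.0778), without the filter (0.115) and in limma with a pseudocount of 0.1 (0.0582). The call of IFN-γ at 15 h was lost against unstimulated cells without unstimulated replicate 1 or 2 or IFN-γ replicate 1 (0.0992, 0.0582 and 0.0531), and against CpG without CpG replicate 2 (0.0769) and in DESeq2 (0.0664).

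**Figure D3:**
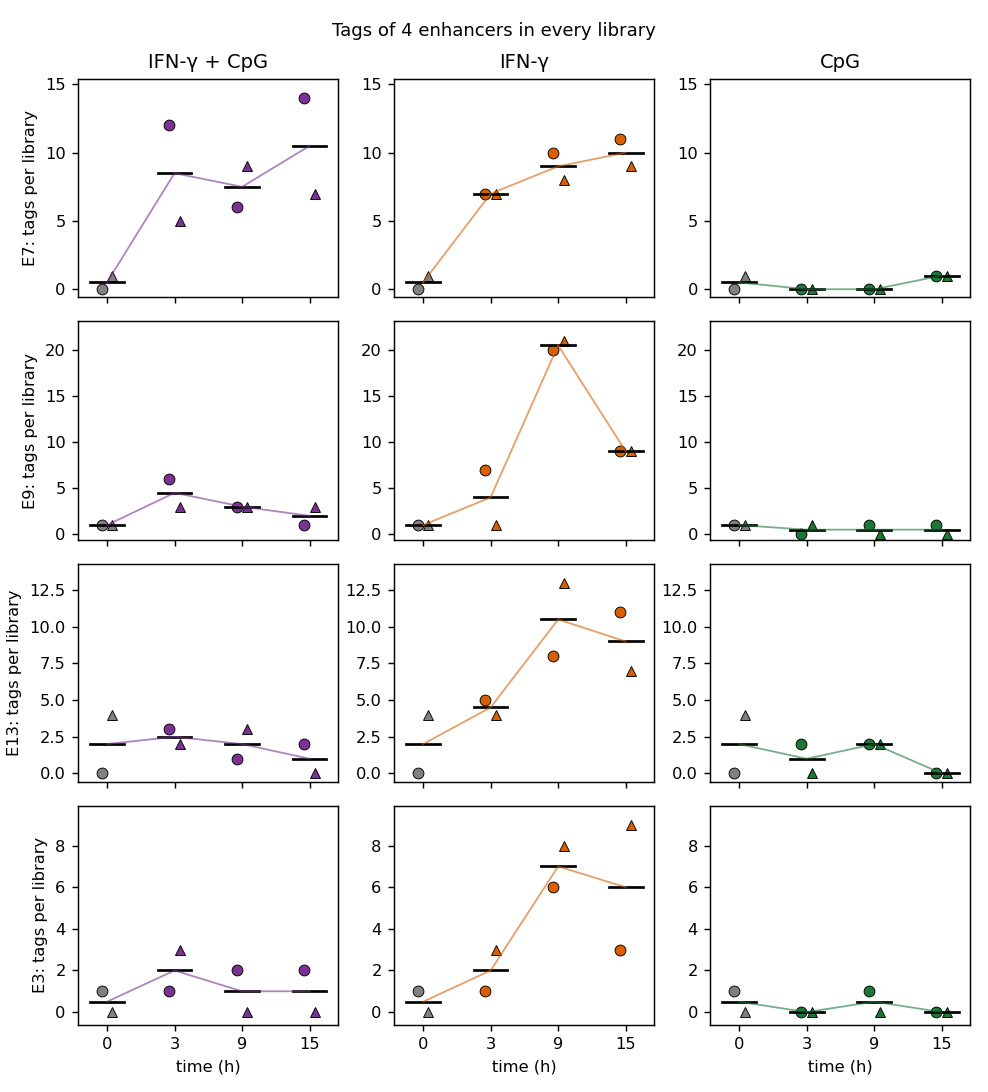
Tags per library (y axis) by hours of stimulation (x axis) for E7, E9, E13 and E3 (rows) with both stimuli, IFN-γ alone and CpG alone (columns); circles and triangles are replicates 1 and 2, bars are group means joined by a line, and grey marks at 0 h are the unstimulated libraries, repeated in each column. E7 holds 5 to 14 tags in every library with IFN-γ, alone or with CpG, whereas E9 at 9 h holds 3 and 3 tags with both stimuli and 20 and 21 with IFN-γ.

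E7 and E9 were compared after their values were seen, so their difference is given without a test. With both stimuli E7 held 53 of the 179 tags of the window (29.6%, exact 95% interval 23.03% to 36.9%) and with IFN-γ 52 of 378 (13.8%, 10.4% to 17.6%). E9 held 19 of 179 with both stimuli (10.6%, 6.51% to 16.1%) and 67 of 378 with IFN-γ (17.7%, 14.0% to 22.0%). These intervals cover counting error only. Without E7 the sum over the other 18 members was no longer higher with both stimuli than in unstimulated cells at 15 h (log2 ratio -0.12, against 0.54 with it), and stood at 0.047 against 0.50 at 9 h.

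E13, the widest member, resembled E9. It held 3 and 2, 1 and 3, and 2 and 0 tags with both stimuli at 3, 9 and 15 h, and 5 and 4, 8 and 13, and 11 and 7 with IFN-γ. With CpG it held 2 and 0, 2 and 2, and 0 and 0, and in unstimulated cells 0 and 4. The libraries of both stimuli lay below those of IFN-γ at each of the 3 times and overlapped those of unstimulated cells.

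IFN-γ differed from unstimulated cells at E13 by a log2 of 2.43 ± 0.80 at 9 h (edgeR adjusted p = 0.0180) and 2.45 ± 0.81 at 15 h (0.0249), and from CpG by 2.38 ± 0.80 at 9 h (0.0191). At 15 h, with no tag under CpG, its level with IFN-γ was at least 5.82-fold higher (3.94e-04). Both stimuli differed from IFN-γ by -1.33 ± 0.89 at 3 h (0.477), -2.10 ± 0.81 at 9 h (0.0990) and -3.39 ± 0.92 at 15 h (0.00837), of which the last is past the threshold. In RPM this was 8.93-fold lower with both stimuli at 15 h (95% interval 2.14 to 79.4).

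The call of E13 with IFN-γ against CpG at 15 h was kept without any 1 of the 4 libraries. Against unstimulated cells the calls were lost without unstimulated replicate 1 (0.335 at 9 h, 0.409 at 15 h), IFN-γ replicate 1 (0.0637 and 0.299) and IFN-γ replicate 2 (0.185 and 0.0685), in DESeq2 (0.140 and 0.137) and without the filter (0.0766 and 0.119), and at 15 h by whole-library totals (0.0709). That of both stimuli against IFN-γ at 15 h was lost without IFN-γ replicate 1 (0.193) and without replicate 2 of both stimuli (0.220). That of IFN-γ against CpG at 9 h was lost without any 1 of the 4 libraries (0.0624 to 0.191), in DESeq2 (0.146) and without the filter (0.0651).

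E3, at the start of the first run, held 1 and 3, 2 and 0, and 2 and 0 tags with both stimuli, and 1 and 3, 6 and 8, and 3 and 9 with IFN-γ. With CpG its 6 libraries held 1 tag in all, at 9 h, and in unstimulated cells it held 1 and 0. Unlike E7 of the same run, its libraries of both stimuli lay below those of IFN-γ at 9 and 15 h. IFN-γ differed from unstimulated cells by 3.61 ± 1.24 at 9 h (edgeR adjusted p = 0.0250) and 3.61 ± 1.26 at 15 h (0.0331), and from CpG by 3.56 ± 1.25 at 9 h (0.0255), with a level at least 3.88-fold higher at 15 h (0.0103). Both stimuli differed from IFN-γ by -2.47 ± 1.13 at 9 h (0.174) and -2.80 ± 1.12 at 15 h (0.0861), which is not past the threshold. Limma on log2(RPM + 0.5) called 4 members between both stimuli and IFN-γ where edgeR called 2. The share of all tested enhancers that limma called is not given here, so the 4 cannot be set against it. DESeq2 called none, but gave no adjusted p for 5 of the 7 at 9 h and at 15 h.

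The calls of E3 at 9 h were lost without any 1 of the 4 libraries compared (0.0843 to 0.18 against unstimulated cells, 0.0732 to 0.207 against CpG) and without the filter (0.0682 and 0.0580). At 15 h those against unstimulated cells were lost without unstimulated replicate 1 or 2 (0.121 and 0.228) or IFN-γ replicate 2 (0.416), by whole-library totals (0.0656) and without the filter (0.104). That against CpG at 15 h was lost without IFN-γ replicate 2 (0.200) or CpG replicate 1 or 2 (0.116 and 0.0973).

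E14 and E18 were called only between IFN-γ and CpG, where CpG held no tag. With IFN-γ E14 held 7 and 3 tags at 9 h and 3 and 6 at 15 h, a level at least 3.24-fold and 2.91-fold higher than with CpG (edgeR adjusted p = 0.0223 and 0.0323). It held 3 and 1, and 0 and 1 tags with both stimuli at these times, and 1 and 1 in unstimulated cells. E18 held 7 and 3 tags with IFN-γ at 15 h, a level at least 3.23-fold higher than with CpG (0.0130). It held 3 and 5 tags in unstimulated cells, the most of the 7, and its IFN-γ libraries overlapped those at each time.

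These calls too depended on single libraries. That of E14 at 9 h was lost without IFN-γ replicate 1 (0.209) or CpG replicate 1 or 2 (0.144 and 0.145), and at 15 h without any 1 of the 4 libraries (0.0736 to 0.217). Both were lost without the filter (0.0521 and 0.0828). That of E18 was lost without IFN-γ replicate 1 (0.176) or CpG replicate 1 or 2 (0.135 and 0.116) and in DESeq2 (0.0791).

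E16 passed the filter and was called in none of the 24 comparisons. It held 4 and 2, 2 and 2, and 5 and 3 tags with both stimuli at 3, 9 and 15 h, and 1 and 4, 2 and 4, and 4 and 5 with IFN-γ, against 0 and 3 in unstimulated cells. Its difference between both stimuli and IFN-γ was -0.26 ± 1.04, -0.34 ± 1.08 and -0.55 ± 0.88.

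**Figure D4:**
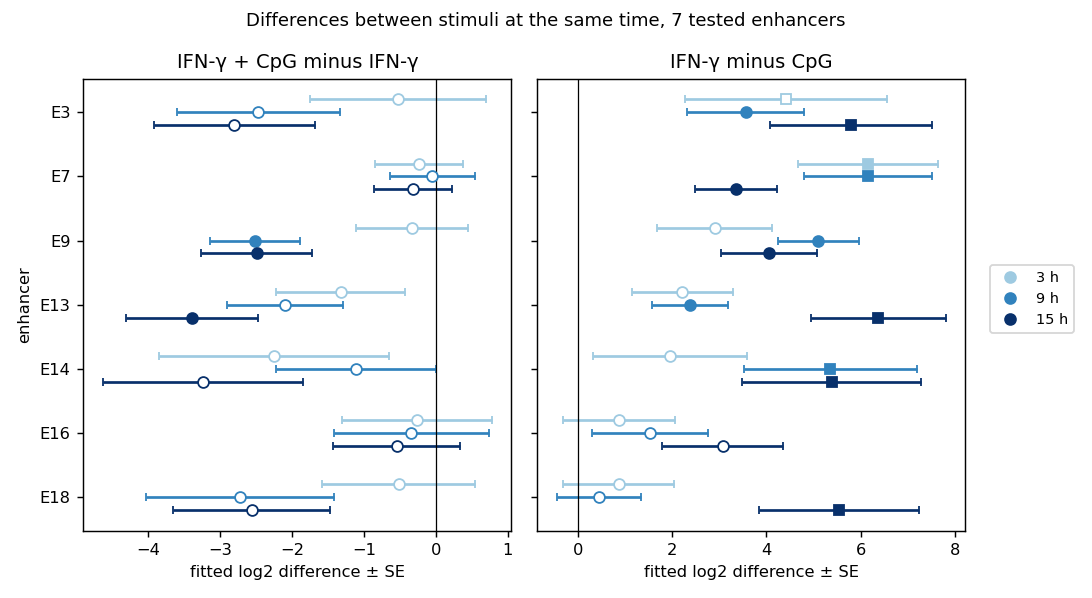
Fitted log2 difference ± SE (x axis) of the 7 tested enhancers (y axis) at 3, 9 and 15 h (light to dark), with both stimuli minus IFN-γ and IFN-γ minus CpG in separate panels; filled marks have an edgeR adjusted p under 0.05, open marks do not, and squares mark comparisons in which 1 group had no tag, so that the fitted value depends on the prior count. E7 stays near 0 between both stimuli and IFN-γ, and E9 stands at -2.52 and -2.49 at 9 and 15 h.

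No tested member was called between 15 h and 3 h of the same stimulus, where 1.04%, 0.645% and 9.28% of all tested enhancers were called for IFN-γ, CpG and both stimuli. The fitted difference was above 0 for 7, 1 and 2 of the 7, and for 46.8%, 47.5% and 45.5% of all tested enhancers. At this depth the lack of a call does not show that levels stayed the same. No member had an unadjusted p under 0.05 in edgeR. Limma on log2(RPM + 0.5) called none, with an unadjusted p under 0.05 for 2 members. DESeq2 gave no adjusted p for 7, 6 and 5 of the 7 and called none of the others. The log2 difference of E9 between 15 h and 3 h was 1.02 ± 0.68 with IFN-γ and -1.14 ± 0.90 with both stimuli (adjusted p = 0.544 and 0.443). The response to both stimuli was also compared with the sum of the log2 responses to each alone. No member departed from it in edgeR, where 0.0358%, 0% and 0.107% of all tested enhancers did at 3, 9 and 15 h (0.143% at 1 or more times), and none had an unadjusted p under 0.05; DESeq2 and limma on log2(RPM + 0.5) called none either. In limma on log2(RPM + 0.5), 3 members had an unadjusted p under 0.05 for this departure. The SE of this difference in edgeR was 0.52 to 2.69 over the 7 members. It depends on the prior count where a group had no tag, as for E14 at 15 h (0.52), where CpG held none. For most of these values a moderate departure was not detectable at this depth.

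The 12 members that did not pass the filter held 10 to 33 tags each over the 20 libraries. Together they held 26, 16 and 14 tags with both stimuli at 3, 9 and 15 h, 24, 55 and 35 with IFN-γ, 12, 23 and 15 with CpG, and 17 in unstimulated cells. In RPM they averaged 1.99 ± 0.982 under IFN-γ at 9 h, against 0.620 ± 0.351 in unstimulated cells (SD, n = 2), where the libraries held 18 and 37 tags and 5 and 12. The libraries of these 2 groups did not overlap.

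Among these 12, E4 and E5, in the first run, and E10, in the second, held no tag with CpG in 6 libraries. E4 held 7 tags with both stimuli and 14 with IFN-γ, E5 held 3 and 10, and E10 held 2 and 10. E11 held 2 tags with both stimuli and 20 with IFN-γ, of which 1 and 6 fell at 9 h and 0 and 7 at 15 h, so that replicate 2 held most of them. At 9 h E8 held 3 and 8 tags with IFN-γ and 4 and 3 with CpG, against 0 and 1 in unstimulated cells. E2 held 7 tags with both stimuli, 11 with IFN-γ and 2 with CpG, over 6 libraries each, and none in the 2 unstimulated libraries.

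The members at both ends of the window were not highest with IFN-γ. Totals in this paragraph are over the 6 libraries of each stimulus and the 2 unstimulated libraries. E19 held 5 tags with both stimuli, 3 with IFN-γ, 15 with CpG and 4 in unstimulated cells. E1 held 8, 2, 6 and 1. In RPM E19 averaged 0.0632 with both stimuli, 0.0367 with IFN-γ, 0.191 with CpG and 0.145 in unstimulated cells. All 4 of its unstimulated tags were in replicate 1. E12 held 5 tags with both stimuli in 1 library of 3 h and none in the other, and 4 and 0 in unstimulated cells. E6 (3 tags with both stimuli, 4 with IFN-γ), E15 (9 and 7) and E17 (1 and 7) held too few tags to show an order. Just outside the window, the nearest enhancer below it, chr17:33785241-33785437, held 1 tag with both stimuli, 2 with IFN-γ, 6 with CpG and 2 in unstimulated cells, and the nearest above it, chr17:35143409-35143806, held 6, 1, 1 and 0. None of these 4 enhancers at the window's edges passed the filter.

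Over the 10 group means of log2(RPM + 0.1), all 7 tested members were positively correlated with the summed level, which includes them. E3 followed it most closely (Pearson's r = 0.982), then E9 (0.959), E13 (0.927), E14 (0.850), E16 (0.795), E7 (0.785) and E18 (0.629). The 21 pairs of tested members had an r of 0.0852 to 0.969 with a median of 0.739. The lowest was that of E7 and E18 and the highest that of E3 and E9. All values share the libraries and their depth, so these are descriptions. The 7 also passed the filter only through libraries with IFN-γ, alone or with CpG. Positive values with the sum and with each other are favoured by this selection.

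By the same measure the tested enhancers elsewhere in the genome most like the sum were chr11:58850818-58851268 (r = 0.973), chr17:71485884-71486304 (0.958), chr13:97430232-97430567 (0.944), chr11:83040739-83041069 (0.940) and chr16:17227585-17227766 (0.940). The first had 0.660 RPM with both stimuli at 3 h and 0.38 RPM at 9 h. It had 0.493, 1.99 and 1.62 RPM with IFN-γ at 3, 9 and 15 h, 0.0382 and 0.0373 RPM with CpG at 3 and 9 h, no tag with CpG at 15 h, against 0.0734 RPM in unstimulated cells. Like E9 it was thus highest with IFN-γ at 9 h and lower with both stimuli at that time.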

How the data were processed

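The authors deposited raw tag counts of 11222 enhancers in 20 libraries, and a table of the same enhancers named TPM, whose deposited values are RPM, relative to the whole library, as the raw counts show. Per the submitters' processing notes, the build was mm39; the tools named there, with no role or order, are HISAT2 2.1.0, BWA 0.7.10, Trimmomatic 0.38 and FastQC 0.11.5; the enhancer caller is not given in the sources used here. Groups came from sample titles and characteristics.

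The robust two-sided quasi-likelihood test of edgeR 4.0.16 (R 4.3.3) was run on the counts of all 20 libraries, with a coefficient for each group (10 residual degrees of freedom), TMM factors and filterByExpr (minimum count 5, minimum total 15), which kept 2792 enhancers and 7 members. The SE was the log2 change over the square root of F. The common biological coefficient of variation was 17.8%. Sums over members are RPM without a test. Members within 50 kb of a neighbour, by midpoint, form a run. Members called in any of the 24 comparisons, and the 3 with most tags, are described singly, the rest by counts; examples among the rest were chosen after their values were seen. The members, lists and comparisons were chosen with earlier results of these data known.

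Where a group had no tag, folds used a floor of 3 tags over the group. Ratios with few tags have exact 95% intervals; both cover counting error only. In a simulation of IFN-γ at 9 h against unstimulated cells with 2792 enhancers, 1.25% of calls were false. Same-numbered replicates did not deviate together (r -0.0513 to 0.0381 over 45 pairs of groups), so numbers were not used as pairs. Alternatives were RLE factors, whole-library totals, DESeq2 1.42.0, a stricter filter (minimum count 10, minimum total 30), none, a replicate block, fits of only the groups compared, limma 3.58.1 on log2(RPM + 0.5, 0.1 or 2), and leaving out each library. The annotation at hand is of GRCm38; genes near the enhancers, their sequences and motifs, and enhancers at other antigen presentation genes are not analysed here. Positions are as deposited; no source says if starts count from 0 or 1. RefSeq held all 16 gene names looked up.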

Additional observations from a re-analysis of the deposited data

How the results depend on the processing

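The 30 single calls described kept their direction in every alternative that gave them an adjusted p. Outside the fits that left out a library, 251 of 278 values kept the call, with missing adjusted p of DESeq2 left out; of 120 values without 1 library, 50 did. Calls whose enhancer did not pass the filter of an alternative are not among the 278 either. DESeq2 gave 23 values for the 30 calls and kept 10. The stricter filter gave 23 values and the fits of only the groups compared gave 22, all kept. In the fits without 1 library a group has 1 sample, assumed to vary like the others. With 2 libraries a group and 10 to 108 tags per enhancer, depth limits every single value. The share of all tested enhancers called under each alternative is not given here. Whether a setting calls more or fewer enhancers everywhere thus cannot be read from the member counts that follow. The number of members called with IFN-γ against unstimulated cells was 4, and 2 in DESeq2 (no adjusted p for 4 of the 7 at each time), 2 without the filter and 1 to 4 without 1 library (1 without unstimulated replicate 1). With both stimuli it was 1, and 0 to 1 without 1 library (0 without unstimulated replicate 1). With CpG it was 0, and 1 in limma with a pseudocount of 0.1. Between both stimuli and IFN-γ it was 2, and 0 in DESeq2 (no adjusted p for 5 of the 7 at 9 h and at 15 h, so only 2 could be called), 4 in limma with each of 3 pseudocounts, and 1 to 2 without 1 library. The 1 came from leaving out IFN-γ replicate 1 of 9 h or of 15 h, or replicate 2 of both stimuli of 15 h. Between IFN-γ and CpG it was 6, and 3 in DESeq2 (no adjusted p for 4, 4 and 2 of the 7 at 3, 9 and 15 h) and 3 under the stricter filter, which left only 3 members to test. For the departure from additivity it was 0, and 1 in limma with a pseudocount of 2. The replicate number as a block left the 30 calls and these counts as they were (4, 0, 1, 2, 1 and 6 members, in the order IFN-γ, CpG and both stimuli against unstimulated cells, both stimuli against IFN-γ, both stimuli against CpG, and IFN-γ against CpG).

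The log2 ratio of the sum to unstimulated cells moved with the members summed and with the scaling. The 7 tested members passed the filter through libraries with IFN-γ, in which they are high. Sums over these 7 are therefore no independent check. For IFN-γ at 3 h it was 1.00, and 0.73 without E7, 1.27 over the 7 tested members and 1.46 by TMM-scaled enhancer tags. At 9 h it was 2.18, and 2.47 over the 7. At 15 h it was 1.82, and 1.62 without E7, 2.22 over the 7 and 2.14 by TMM. For both stimuli at 3 h it was 0.93, and 0.59 without E7. At 9 h it was 0.50, and 0.047 without E7, 0.82 over the 7 and 0.80 by TMM. At 15 h it was 0.54, and -0.12 without E7. For CpG at 3 h it was -0.75, and -1.04 over the 7 and -0.46 by TMM. At 9 h it was 0.02, and -0.47 over the 7 and -0.075 to 0.12 without 1 library (-0.06 without CpG replicate 1 and -0.075 without unstimulated replicate 1). At 15 h it was -0.92, and -2.33 over the 7. The cause of these changes was not tested, apart from the members left out. Scaling also moved all enhancers: the median log2 difference of all tested enhancers from unstimulated cells was 0.00 to 0.32 with TMM and -0.30 to 0.40 by whole-library totals.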
